A study of Mus musculus with 2 samples.

Results

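Alveolar type 1 epithelial cells of the mouse lung were examined in 2 single-cell RNA libraries. The cells were chosen by their measured UMI counts: a barcode was taken as a type 1 cell when it carried at least 3 of the 7 counted genes Ager, Hopx, Rtkn2, Aqp5, Akap5, Clic3 and Col4a3, at most 1 UMI of the type 2 genes Lamp3 and Slc34a2 together, and no UMI of Ptprc, Cdh5 or Col1a1. The rule found 153 of 26650 kept barcodes: 34 in the S100A4-11 library and 119 in the IgG library. Both libraries came from lungs of BALB/c mice that carried 4T1 mammary tumour cells in the mammary fat pad, taken on day 14. The treated mice had received the antibody S100A4-11, raised against the calcium-binding protein S100A4, and the control mice had received IgG antibody. Each treatment has 1 library, the number of mice behind it is not given in the sources used here, and no replicate check can be made. The values below therefore compare 2 libraries, not 2 treatments, and the 95% intervals cover counting error only.

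Type 1 cells are the very thin, flat epithelial cells that cover most of the gas-exchange surface. They share a basement membrane with the capillary endothelium, carry water and sodium channels, and are renewed from type 2 cells, which make surfactant. Their large, thin bodies make them hard to recover intact when lung is dissociated, and they are rare in droplet data.

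The S100A4-11 library held 12506 barcodes, of which 12365 had at least 200 genes and at most 15% mitochondrial UMIs, with a median of 3801 UMIs. The IgG library held 14411 barcodes, of which 14285 were kept, with a median of 4174 UMIs. The 2 libraries shared 266 barcode sequences, and none of these was a type 1 barcode in both. UMIs of type 1 genes in neutrophils were more frequent in the IgG library. Ager UMIs were found in 1.55% of S100A4-11 neutrophils and 4.01% of IgG neutrophils, at median depths of 4055 and 4359 UMIs. At least 3 of the 7 counted genes were seen in 4 of 2717 S100A4-11 neutrophils and in 26 of 3219 IgG neutrophils. In the whole libraries 222 S100A4-11 barcodes and 651 IgG barcodes had at least 3 counted genes. Of these, 130 in S100A4-11 and 303 in IgG had more than 1 UMI of Lamp3 and Slc34a2, and 113 and 394 held a UMI of Ptprc, Cdh5 or Col1a1.

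Not all barcodes that met the rule looked like type 1 cells. In 26 of them, 4 from S100A4-11 and 22 from IgG, at least 3 of the 7 markers of another class were detected, and these were set aside. The choice was made after the data had been seen. The set-aside barcodes held 14.8% of the UMIs of S100A4-11 members and 62.0% of those of IgG members. A group of 7 IgG barcodes stood apart, with 27454 to 79101 UMIs each and 34.6% to 51.1% of them from Scgb1a1, the secretory protein gene of airway club cells. They held 51.9% of all UMIs of the IgG members and only 30 UMIs of Ager. The threshold drew several of them in: IgG members with exactly 3 counted genes had 386303 CPM of Scgb1a1 (CPM, UMIs per 1000000 UMIs of the set), against 9328 CPM in IgG barcodes with 2 counted genes. The values that follow are for the 30 S100A4-11 and 97 IgG barcodes that were retained, unless all rule members are named.

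Setting barcodes aside by these markers lowers their sums in what is left, so the sums that follow describe the retained barcodes and are no check of them. Over all IgG rule members the airway list summed to 12235 CPM and the neutrophil list to 6036 CPM. No UMI of 7 B cell markers or 7 T or NK cell markers was found in the S100A4-11 barcodes, and the IgG barcodes held sums of 65.3 CPM and 3.84 CPM for the same lists. Endothelial markers outside the rule summed to 37.3 CPM in S100A4-11 and 131 CPM in IgG, fibroblast markers to 74.6 and 115 CPM, and neutrophil markers to 99.5 and 277 CPM. The airway list summed to 1579 CPM in S100A4-11 and 1272 CPM in IgG. This was almost wholly Sec14l3, with 1579 and 1238 CPM, while Scgb3a2, Foxj1, Ccdc153, Tmem212 and Dynlrb2 were at 0 in both libraries. Sec14l3 was thus a gene of the type 1 barcodes as well as an airway marker.

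Type 1 barcodes formed a smaller share of the S100A4-11 library. By the rule they were 0.275% (0.190 to 0.384) of S100A4-11 barcodes and 0.833% (0.691 to 0.996) of IgG barcodes, a ratio of 0.330 (0.219 to 0.487). Retained barcodes alone were 0.243% and 0.679%, a ratio of 0.357 (0.229 to 0.543). Type 2 cells, named from their own markers, were also a smaller share of S100A4-11, with 166 barcodes there and 315 in IgG and a ratio of 0.609 (0.501 to 0.737). Per type 2 cell there were 0.205 type 1 barcodes in S100A4-11 and 0.378 in IgG, a ratio of 0.542 (0.343 to 0.842). Among barcodes with no Ptprc UMI, a denominator without most immune cells, the type 1 share was 0.629% in S100A4-11 and 1.74% in IgG. The type 1 ratio lay below those of endothelial cells (0.889), fibroblasts (0.724), mural cells (0.686) and alveolar macrophages (0.764), which were also lower in S100A4-11. The airway ratio was 0.578 (0.263 to 1.20), with 12 and 24 cells. B cells (1.79, 1.65 to 1.95), T or NK cells (1.26) and monocytes or macrophages (1.21) were larger shares of S100A4-11, and a larger share of one class lowers the shares of the others. Fewer cells in the lung and fewer cells recovered from it cannot be told apart in these counts.

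**Figure D1:**
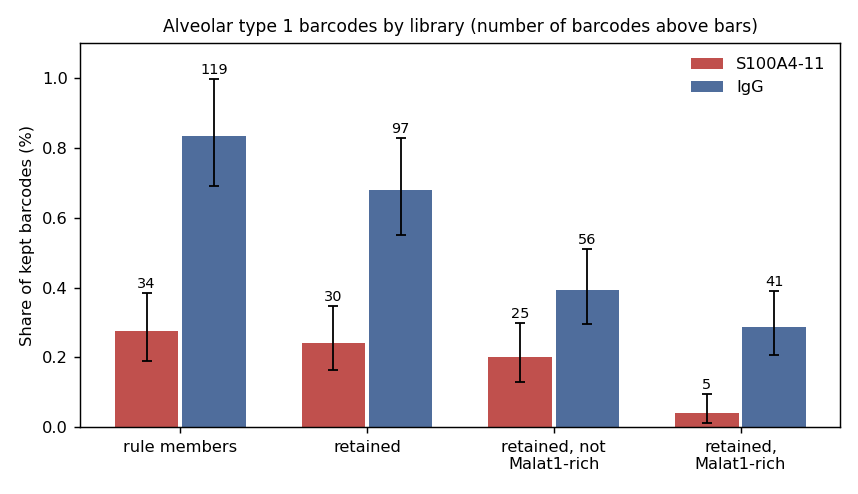
Share of kept barcodes (%) taken by type 1 barcodes in the S100A4-11 (red) and IgG (blue) libraries, for all rule members and for 3 subsets, with exact binomial 95% intervals and the number of barcodes above each bar. The Malat1-rich subset was 5 barcodes in S100A4-11 and 41 in IgG, with the lowest ratio of shares of the 4 sets drawn (0.141).

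The type 1 barcodes were split into 2 kinds by their Malat1 share, and the libraries held these in different proportions. In 5 of 30 S100A4-11 barcodes (16.7%, 5.64 to 34.7) and 41 of 97 IgG barcodes (42.3%, 32.3 to 52.7), Malat1, a long RNA kept in the nucleus, made up at least 4% of UMIs. The 4% limit was set after the data had been seen, and IgG barcodes lay close to it on both sides, at 3.85% and 4.13%. In these Malat1-rich barcodes the median mitochondrial share was 0.507% in S100A4-11 and 0.394% in IgG, against 2.21% and 1.85% in the other retained barcodes. They were no shallower: the IgG Malat1-rich barcodes had a median of 3384 UMIs and the other IgG barcodes 1114. Malat1-rich barcodes were 5.42% and 11.1% of type 2 cells and 10.2% and 15.8% of mural cells in S100A4-11 and IgG. They were 0.407% and 0.529% of endothelial cells. In those classes they did not have the low mitochondrial share seen in type 1 barcodes. The Malat1-rich type 2 cells had medians of 6.86% in S100A4-11 and 7.19% in IgG, against 2.71% and 2.37% in other type 2 cells, and the Malat1-rich mural cells 2.76% and 2.11%, against 1.67% and 1.603%.

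The counted genes, which chose the barcodes, are given by kind as a description. Ager, which encodes the cell-surface receptor RAGE and has a gene of 3.08 kb at chr17:34597862-34600936 (GRCm38, GENCODE M21, plus strand), had a median of 6 UMIs in S100A4-11 and 3 in IgG Malat1-rich barcodes. In the other barcodes its median was 18 and 9. Rtkn2, the rhotekin 2 gene, of 80.2 kb on chromosome 10, ran the other way, with medians of 20 and 25 UMIs in Malat1-rich barcodes and 2 and 1 in the others. Col4a3, a 135 kb gene on chromosome 1 for a chain of basement membrane collagen, had medians of 6 and 8 against 2 and 1. These medians are UMIs not scaled for depth. Median depth was 4310 UMIs in S100A4-11 and 3384 in IgG Malat1-rich barcodes, against 1774 and 1114 in the others. Across all genes measured in IgG type 1 barcodes, the median log2 ratio of Malat1-rich over other barcodes was -2.73 for 359 genes under 10 kb long, -0.40 for 751 genes of 10 to 50 kb and 1.502 for 1449 genes over 50 kb. The long genes were above 0 in 89.0% of cases and the short ones in 7.80%. At the other end, no Malat1 UMI was found in 3 S100A4-11 barcodes (10%) and 16 IgG barcodes (16.5%). In S100A4-11 and IgG the shares were 5.96% and 4.84% in fibroblasts, 3.85% and 2.79% in endothelial cells and 3.01% and 0.952% in type 2 cells. In neutrophils they were 0.147% and 0.155%. Depth was not matched, with medians of 598 and 1028 UMIs in these type 1 barcodes against 4055 and 4359 in neutrophils.

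**Figure D2:**
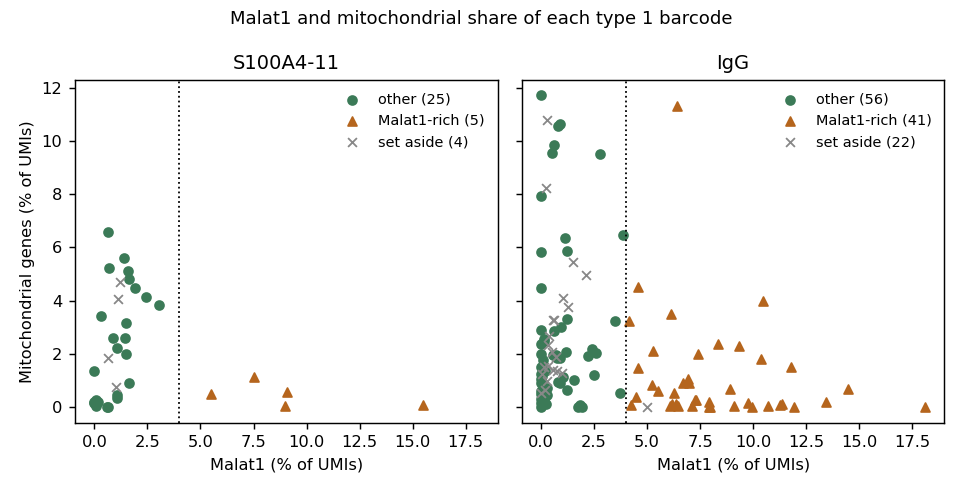
Malat1 share of UMIs (x axis, %) against mitochondrial share (y axis, %) for each of the 34 S100A4-11 and 119 IgG rule members; triangles are Malat1-rich, circles the other retained barcodes and crosses those set aside, and the dotted line marks 4%. Most Malat1-rich barcodes lie near the bottom of the plot, with median mitochondrial shares of 0.507% in S100A4-11 and 0.394% in IgG.

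With Malat1-rich barcodes left out, 25 S100A4-11 and 56 IgG barcodes remained, or 0.202% and 0.392% of the libraries, and the ratio of their shares was 0.516 (0.308 to 0.840). The Malat1-rich barcodes alone were 0.0404% and 0.287%, a ratio of 0.141 (0.0435 to 0.356). Per type 2 cell, the ratio of the libraries was 0.847 (0.488 to 1.44) without Malat1-rich barcodes, an interval that holds 1, and 0.587 (0.361 to 0.936) with them. The type 2 cells in both ratios include their own Malat1-rich barcodes, 9 in S100A4-11 and 35 in IgG.

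To read each counted gene apart from its own part in the rule, barcodes that met the rule on the other 6 were taken, set-aside barcodes included. Ager was found in 28 of 33 such S100A4-11 barcodes (84.8%) and 93 of 104 IgG barcodes (89.4%). Hopx, a homeobox cofactor gene, was found in 29 of 29 and 92 of 97, but it was also present in 23.4% and 27.9% of neutrophils and in 69.6% and 72.8% of endothelial cells, so that it marked more than type 1 cells. Rtkn2 was found in 69.7% and 64.7%, Akap5, which encodes a kinase anchoring protein, in 69.7% and 61.1%, and Col4a3 in 64.5% and 63.2%. Without set-aside barcodes the shares were 75.9% and 77.7% for Rtkn2, 70% and 69.5% for Akap5, and 67.9% and 73.9% for Col4a3. Each of these 3 genes was in at most 1.21% of neutrophils in either library. Aqp5, a water channel gene, was found in 72.7% of S100A4-11 and 56.3% of IgG barcodes, and Clic3, a chloride channel family gene, in 87.1% and 61.0%. Without set-aside barcodes the shares were 75.9% and 57.3% for Aqp5 and 89.3% and 60.4% for Clic3. Both were also common in type 2 cells, at 68.1% and 71.7% for Aqp5 and 62.0% and 62.9% for Clic3.

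Ager was densest in type 1 barcodes but most of its UMIs lay elsewhere. The retained barcodes had 16964 CPM in S100A4-11 and 7276 CPM in IgG, and they held 29.7% and 18.3% of all Ager UMIs in the libraries. Type 2 cells had 958 and 997 CPM, with a UMI in 89.8% and 90.8% of cells, and held 34.3% and 34.9% of Ager UMIs. Endothelial cells had 33.96 and 71.8 CPM and neutrophils 5.37 and 23.5 CPM. Ager helped to choose the type 1 barcodes, so their levels are a description. In barcodes that met the rule on the other 6 genes and were not set aside, the level was 16964 CPM in S100A4-11 and 7534 CPM in IgG. In retained barcodes that were not Malat1-rich, chosen with Ager counted, it was 20705 CPM in S100A4-11 and 13618 CPM in IgG.

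Of 30 further genes known from type 1 cells, 28 had a higher level in the retained barcodes than in any of the 9 classes with at least 50 cells in each library. The other 2, Timp3 and Fstl3, were higher in mural cells in at least 1 library. Over all rule members the count was 24. Of the 30 genes that stood highest over all other kept barcodes in both libraries, 29 are drawn by class, as a description of the barcodes the rule chose. They ranged from Col4a4, with 1542 CPM in S100A4-11 and 1783 CPM in IgG against 3.07 and 5.91 CPM in all other barcodes, to Mal2, with 410 and 519 CPM against 4.17 and 8.06 CPM. Basement membrane genes were prominent among them. Besides Col4a4, which pairs head to head with Col4a3, they held Lama3, the gene of a laminin chain (1306 and 1326 CPM). The epithelial sodium channel subunits Scnn1g (559.6 and 503.5 CPM) and Scnn1b (249 and 331 CPM) were there too. So were the axon guidance ligands Sema3a (535 and 1145 CPM) and Sema3e (1617 and 2091 CPM), and Itgb6, an integrin subunit that activates TGF-beta (423 and 227 CPM). Scel, the gene of the envelope protein sciellin, had 386 CPM in S100A4-11 and 776 CPM in IgG and at most 1.38 CPM in type 2 cells. Igfbp2, which encodes an insulin-like growth factor binding protein and marks mature type 1 cells, had 386 and 457 CPM. It was found in 36.7% of S100A4-11 and 35.1% of IgG barcodes.

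**Figure D3:**
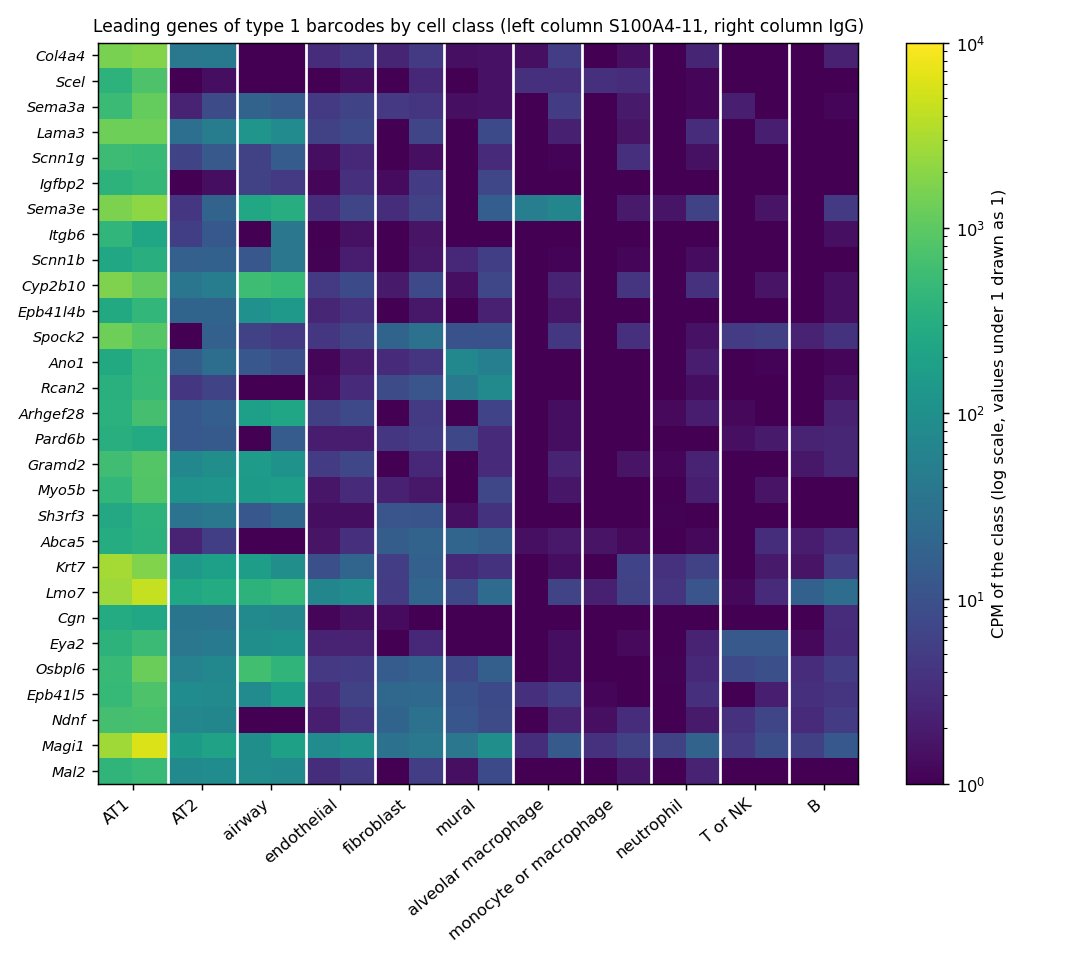
Level (CPM, colour on a log scale) of 29 leading genes of retained type 1 barcodes in type 1 barcodes and 10 other classes, with S100A4-11 in the left and IgG in the right column of each class. Type 1 columns are brightest for most genes; the few airway cells come near them for Cyp2b10 and, in S100A4-11, are above them for Osbpl6 (608 against 510 CPM).

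The promoters of these genes were read for the core letters bound by 2 factor families of lung epithelium, as a description of sequence. RefSeq promoters (GRCm38.p6) were found for 23 of the 30 genes, as 33 windows of the 250 bases before a start. CAAGTG or its reverse complement CACTTG, the core bound by NKX2-1, was in 2 of the 33 (6.06%), against 11.6% of all 32851 promoters. GGAATG or CATTCC, the TEAD core, was in 1 (3.03%), against 12.6%. The 2 profile genes with an NKX2-1 core are shown 5′ to 3′ on the gene's strand, with the core in capitals: Scel at chr14:103513091-103513340 (plus strand) and Scnn1g at chr7:121734229-121734478 (plus strand).
Scel: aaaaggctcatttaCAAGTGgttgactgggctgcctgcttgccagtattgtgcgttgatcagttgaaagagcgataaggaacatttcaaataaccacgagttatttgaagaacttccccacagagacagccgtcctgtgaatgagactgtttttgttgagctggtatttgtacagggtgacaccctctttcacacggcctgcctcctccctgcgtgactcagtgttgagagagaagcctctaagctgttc
Scnn1g: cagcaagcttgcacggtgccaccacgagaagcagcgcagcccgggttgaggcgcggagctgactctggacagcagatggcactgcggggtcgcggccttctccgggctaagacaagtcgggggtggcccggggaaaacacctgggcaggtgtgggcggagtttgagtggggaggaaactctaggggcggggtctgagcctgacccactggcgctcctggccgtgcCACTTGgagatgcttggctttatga
The core lies 236 bases before the start of Scel and, on the opposite strand, 25 bases before that of Scnn1g. These letters in these windows were thus no more frequent among the leading type 1 genes than among all promoters.

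Levels between the libraries were compared in the 25 S100A4-11 and 56 IgG barcodes that were not Malat1-rich, because the mix of the 2 kinds differed between the libraries. In this set 1466 genes had at least 20 UMIs over both libraries. Of these, 16.8% were at least 1.5-fold higher in S100A4-11 and 17% at least 1.5-fold lower, with a median log2 ratio of 0.03. In all retained barcodes the same shares were 23.4% and 36.5% of 3335 genes, and over all rule members 36.1% and 21.3% of 5577 genes.

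Type 1 genes outside the rule were past 1.5-fold about as often as all genes. Of 28 measured type 1 genes outside the rule, 6 were at least 1.5-fold higher in S100A4-11 and 3 lower, with a median log2 ratio of 0.23. Over all rule members, where the IgG sum held the Scgb1a1-rich barcodes, 24 of 30 were higher and none lower, with a median of 1.25. All genes measured over rule members had a median of 0.37, with 36.1% higher and 21.3% lower. Emp2, a tetraspan membrane protein gene, had 6214 CPM in S100A4-11 and 4228 CPM in IgG (ratio 1.47, 1.28 to 1.69). Cldn18, the tight junction claudin of alveolar epithelium, had 3498 and 2292 CPM (1.53, 1.27 to 1.84). Krt7 had 3560 and 3470 CPM (1.03, 0.866 to 1.21), Vegfa, the endothelial growth factor that type 1 cells supply to capillaries, 3263 and 2694 CPM (1.21, 1.01 to 1.45), and Pdpn, the podoplanin gene, 843 and 655 CPM (1.29, 0.886 to 1.86). Clic5 was lower in S100A4-11, with 1421 CPM against 1843 CPM in IgG (0.771, 0.595 to 0.994). So was Igfbp2, with 484 CPM in S100A4-11 and 879 CPM in IgG (0.551, 0.354 to 0.834), although the share of barcodes with a UMI was 44% in S100A4-11 and 48.2% in IgG.

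Basement membrane genes were mostly higher in S100A4-11. Of 15 measured members outside the rule, 10 were at least 1.5-fold higher in S100A4-11 and none was 1.5-fold lower, with a median log2 ratio of 0.74 against 0.03 over all genes. Among all genes 16.8% were that much higher and 17% lower. Col4a4 had 1077 CPM in S100A4-11 and 589 CPM in IgG (1.83, 1.28 to 2.61), and Hspg2, the perlecan gene, 984 and 561 CPM (1.75, 1.21 to 2.54). Col4a2 had 999 and 599 CPM (1.67, 1.16 to 2.40). Without 1 S100A4-11 barcode rich in F3, which is described with the transitional genes, the list's median was 0.62. Npnt, which encodes the integrin ligand nephronectin, had 468 and 253 CPM (1.85, 1.07 to 3.24). Over all retained barcodes 7 of 17 were higher and 1 lower, with a median of 0.38. All genes measured over retained barcodes had a median of -0.15, with 23.4% higher and 36.5% lower. Col4a4 and Npnt were lower in S100A4-11 over retained barcodes. These 2 genes were 4.44-fold and 3.51-fold higher in Malat1-rich IgG barcodes than in the other IgG barcodes.

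The counts in this paragraph stand beside 16.8% of all genes at least 1.5-fold higher in S100A4-11 and 17% lower. Among genes of ion and water transport, 1 of 9 measured members was higher in S100A4-11 and none lower. Sodium channel subunit Scnn1a had 1390 CPM in S100A4-11 and 1085 CPM in IgG (1.28, 0.961 to 1.70), Scnn1b 297 and 355 CPM (0.835, 0.455 to 1.48) and Scnn1g 593 and 496 CPM (1.20, 0.768 to 1.85), and all 3 intervals held 1. Of 14 membrane and caveolae genes, 3 were higher and 2 lower. Cav1, the caveolin gene, had 2405 CPM in S100A4-11 and 1422 CPM in IgG (1.69, 1.34 to 2.13), while its partner Cavin2 had 484 and 814 CPM (0.595, 0.381 to 0.906). Of 13 junction genes, 4 were higher and 1 lower, Epcam with 468 and 159 CPM (2.95, 1.57 to 5.69) and Ocln, the occludin gene, with 297 and 84.2 CPM (3.52, 1.52 to 8.84) among the higher. The median log2 ratio of the junction list was 0.24. It was -0.17 with every cell weighing the same and 0.007 without the F3-rich barcode.

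S100a4, the gene of the antibody's target, gave 1 UMI in the S100A4-11 type 1 barcodes and 0 in IgG, so that its level in these cells could not be read. Of 9 measured genes of the S100 family, 2 were at least 1.5-fold higher and 2 lower, against 16.8% and 17% of all genes. The family's median log2 ratio was 0.07, and -0.15 with every cell weighing the same. In this family S100a6, which encodes calcyclin, had 8635 CPM in S100A4-11 and 5528 CPM in IgG (1.56, 1.39 to 1.76), and S100a11 had 2061 and 2002 CPM (1.03, 0.823 to 1.29). S100a9, a neutrophil gene, had 93.7 CPM in S100A4-11 and 383 CPM in IgG, and in B cells the 7 neutrophil markers summed to 479 CPM in S100A4-11 and 980 CPM in IgG; the part of free RNA in it was not tested. Of 5 measured receptors and partners reported for S100A4 other than Ager, 3 were higher: Bsg, which encodes basigin, had 1905 CPM in S100A4-11 and 1132 CPM in IgG (1.68, 1.30 to 2.18), and the syndecan gene Sdc1 had 484 and 196 CPM (2.46, 1.37 to 4.51).

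Genes of the transitional state that alveolar epithelium takes on after injury, among them Krt8 and Krt18, were higher in the S100A4-11 sums but much of this came from 1 barcode. Of 8 measured members, 7 were at least 1.5-fold higher and none lower, with a median log2 ratio of 1.05. Among all genes 16.8% were that much higher and 17% lower. A single S100A4-11 barcode of 5140 UMIs held 94 of the library's 127 UMIs of F3, the tissue factor gene, 52 of 62 UMIs of Plaur, the urokinase receptor gene, and 27 of 32 of the matrix gene Thbs1. It also held 44 of 91 Krt8 UMIs and 64 of 154 Krt19 UMIs, together with 115 UMIs of Ager, and it carried all 7 counted genes. The 18 transitional genes made up 5.62% of its UMIs. The next highest S100A4-11 barcode had 1.43% and the highest IgG barcode 2.23%, and the medians were 0.649% in S100A4-11 and 0.640% in IgG. Without that barcode the median log2 ratio of the list was 0.35. Krt8 then had a ratio of 1.27 (0.858 to 1.88) in place of 2.27 (1.64 to 3.16), and Krt19 1.17 (0.885 to 1.53) in place of 1.84 (1.45 to 2.33). Krt18 remained above 1, at 2.30 (1.43 to 3.71) in place of 3.39 (2.22 to 5.27), and was found in 64% of S100A4-11 and 30.4% of IgG barcodes. These shares were not matched for depth, which had medians of 1774 UMIs in S100A4-11 and 1114 in IgG.

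**Figure D4:**
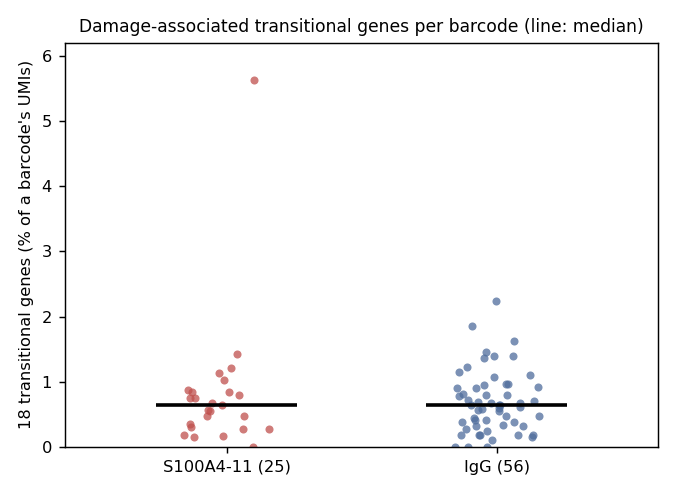
Share of each barcode's UMIs taken by 18 transitional genes (y axis, %) in the 25 S100A4-11 and 56 IgG type 1 barcodes that were not Malat1-rich; lines are medians (0.649% and 0.640%). One S100A4-11 barcode, at 5.62%, lies apart from the rest.

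The 12 genes furthest above a ratio of 1 and the 12 furthest below it, judged by the nearer end of the interval, included several that rested on 1 barcode. Among the higher ones, all 34 Alas2 UMIs and 93.8% of the 32 Cox6a2 UMIs each lay in 1 S100A4-11 barcode, with none in IgG. Ier3, an immediate early gene, had 1702 and 552 CPM (3.08, 2.23 to 4.31) and a UMI in 56% and 41.1% of barcodes, not matched for depth. Of 7 measured genes in the immediate early list, 1 was at least 1.5-fold higher and 2 lower, against 16.8% and 17% of all genes. That list's median log2 ratio was 0.17, and -0.17 without the F3-rich barcode. The monooxygenase gene Cyp4b1 had 2124 and 804 CPM (2.64, 2.001 to 3.50), and the tetraspanin gene Cd9 2061 and 870 CPM (2.37, 1.80 to 3.12). Ccn1, a target of the YAP and TAZ coactivators, had 1874 and 486 CPM (3.85, 2.76 to 5.44) and Ccn2, another, 453 and 243 CPM (1.86, 1.06 to 3.29). Without the F3-rich barcode the ratio was 2.62 for Ccn1, and the Ccn2 interval held 1 (0.967 to 3.14). In all retained barcodes the Ccn2 direction turned. Tinagl1 (593 and 187 CPM) and Tmem43 (500 and 159 CPM), which were named over all retained barcodes, had ratios of 3.17 (1.80 to 5.75) and 3.14 (1.69 to 6.03).

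**Figure D5:**
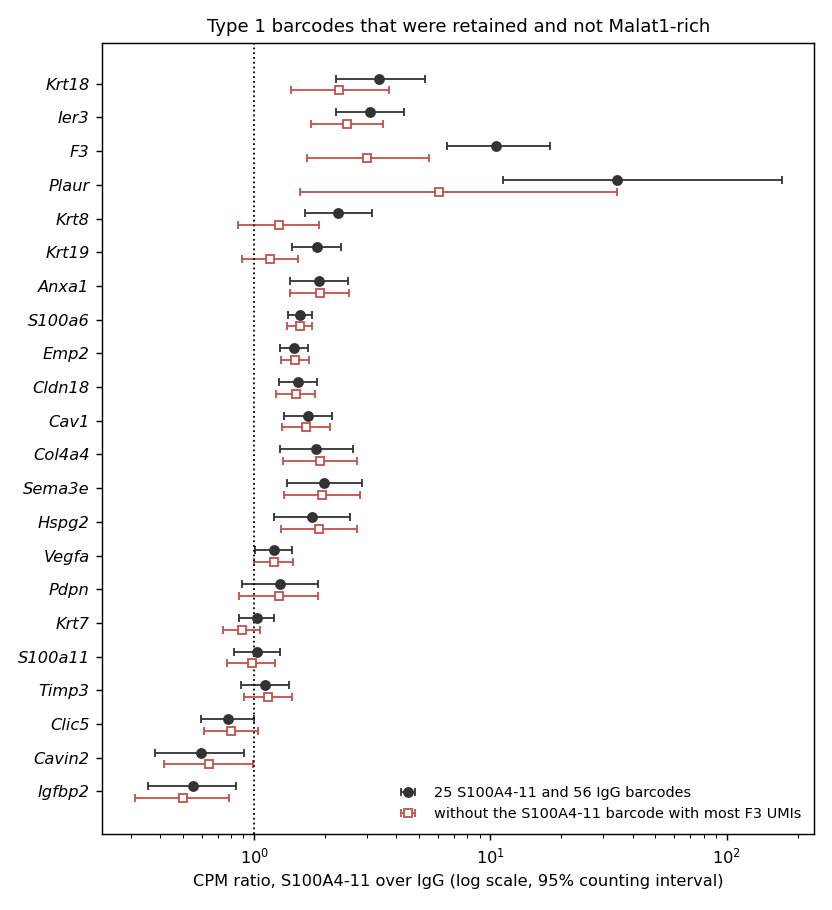
Ratio of CPM, S100A4-11 over IgG, with 95% counting intervals on a log axis for 22 genes in type 1 barcodes that were not Malat1-rich (filled circles), and without the S100A4-11 barcode with most F3 UMIs (open squares). Ier3 and S100a6 stay above 1 in both, while Krt8 and Krt19 intervals reach 1 without that barcode.

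Among the genes lower in S100A4-11, Jarid2, a Polycomb partner gene, had 671 CPM against 3704 CPM in IgG (0.181, 0.129 to 0.249). Camk1d had 4903 and 9587 CPM (0.511, 0.449 to 0.581), Gphn 3513 and 6173 CPM (0.569, 0.487 to 0.663) and AY036118 3825 and 6884 CPM (0.556, 0.479 to 0.643). These 4 were also present in other classes, and in IgG type 2 cells they had between 230 CPM (Jarid2) and 3476 CPM (AY036118). Over all retained barcodes Camk1d, Gphn and AY036118 were not lower in S100A4-11. Of 8 genes induced by glucocorticoids, none was higher and 4 were at least 1.5-fold lower in S100A4-11, with a median log2 ratio of -0.46. Over all genes 17% were that much lower. The list's median ran from -0.71 without the F3-rich barcode to -0.12 with at least 4 counted genes. Tsc22d3, which encodes the leucine zipper protein GILZ, had 109 CPM in S100A4-11 and 374 CPM in IgG (0.292, 0.110 to 0.659). Of 7 measured type 2 and surfactant genes, none was higher and 4 were lower, with a median of -2.83. Sftpc had 234 CPM in S100A4-11 and 12019 CPM in IgG, but 97.0% of the IgG UMIs lay in 1 barcode, and 36% of S100A4-11 and 50% of IgG barcodes had a UMI. That IgG barcode was retained as a type 1 barcode although Sftpc is a surfactant gene, and its UMIs are in the IgG sums given here. How far the median of the type 2 and surfactant list rests on that barcode was not tested. Cd74, of the class II antigen presentation pathway, had 15.6 and 599 CPM, with 67.2% of the IgG UMIs in 1 barcode.

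Further lists are given beside the median log2 ratio of 0.03 over all genes, of which 16.8% were higher and 17% lower. The class I genes H2-D1 (1109 CPM in S100A4-11 and 711 CPM in IgG; 1.56, 1.11 to 2.18), H2-K1 (531 and 496 CPM; 1.07, 0.675 to 1.68) and B2m (219 and 290 CPM; 0.754, 0.371 to 1.46) did not share a direction, and the last 2 intervals held 1. Of 22 cytoskeleton genes, 4 were higher and none lower, with a median log2 ratio of 0.09. Of 6 lung epithelial transcription factor genes, none was higher and none lower, with a median of 0.28. Of 8 YAP and TAZ pathway genes, 4 were higher and 1 lower, with a median of 0.54, which was -0.59 over all retained barcodes. Of 10 ligand genes, 4 were higher and none lower, with a median of 0.46. Hypoxia and glycolysis genes had none of 6 higher and 1 lower. The list of type I interferon genes had too few UMIs in these barcodes to be read.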

How the data were processed

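The deposited matrices list whole-number UMI counts for each gene in each barcode, as the authors filed them, per the file headers. Cell Ranger 7.1.0 and build mm10 are named, per the submitters' processing notes; per the labels' protocols 10x Genomics 5' chemistry was used. The protocol text calls the tissue tumour and the labels say lung; it was read as lung.

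Barcodes with at least 200 genes and at most 15% mitochondrial UMIs were kept. No doublets were removed; Scrublet (Scanpy 1.11.5) called 625 (5.05%) S100A4-11 and 772 (5.40%) IgG barcodes, none of them a type 1 member. Other classes took the barcodes with at least 3 of 7 class markers and more than of any other class. UMIs were summed per library and set and given as CPM, with exact binomial, Poisson or conditional binomial 95% intervals. No test was made, since each treatment has a single library. The interval code was tested on simulated data. Fold counts used genes with at least 20 UMIs and a fold of 1.5, and log2 ratios a pseudocount of 0.5 UMI. Sums over all rule members were the planned values. Gene levels are given over 2 subsets set up after the data had been seen, since 7 barcodes held 51.9% of the IgG UMIs.

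Named genes: the 30 with the highest lower-library ratio over all other barcodes; the 12 highest and 12 lowest between libraries with at least 30 UMIs and 50 CPM, at least 20% of the highest class level, ranked by interval; the 4 members of each of 22 lists with most UMIs, of which examples are given; and S100a4, Ager and the rule genes. Further list members and the genes of the subsets were chosen after their values were seen. Mitochondrial, ribosomal protein, haemoglobin and antigen receptor segment genes were not named, and some items the rule names are not reported here. Members and lists were chosen with earlier results of these data known. Gene positions are GENCODE M21 (GRCm38), matched by gene ID. Python 3.11.15, numpy 2.4.6, scipy 1.17.1 and pandas 2.3.3 were used.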

Additional observations from a re-analysis of the deposited data

How the results depend on the processing

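The share of type 1 barcodes stayed below 1 (S100A4-11 over IgG) under every alternative run, and under the alternatives run it left the interval given only without set-aside and Malat1-rich barcodes, at 0.516; per type 2 cell that ratio was 0.847. Shares of genes past 1.5-fold depended on the barcodes summed. The share higher, 36.1% over rule members, was 22.1% with median of ratios scaling, 20.7% with every cell weighing the same, 23.4% over retained barcodes, 18.4% with these weighing the same, 19.6% without the deepest of them, and 16.8% without Malat1-rich barcodes. The share lower, 21.3%, was 35.6% with every cell weighing the same, 42.7% with a limit of 1 UMI, and 36.5%, 35.2% and 35.4% over retained barcodes, with equal weights, and without the deepest. The number of lists with a median below 0, which was 7 of 22 measured, became 11 of 22 with equal weights and 3 of 18 without Malat1-rich barcodes. It was 4 of 19 over retained barcodes with median of ratios scaling. Lists with no measured member dropped out, so these counts do not cover the same lists. The cause of these moves was not tested.

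Gene values are those of retained barcodes that were not Malat1-rich. Listed as turned are log2 ratios of genes at least 1.5-fold apart with an interval off 1. Over all rule members these were AY036118 0.24, Camk1d 0.94, Cavin2 0.82, Cd74 0.17, Gphn 0.68, Igfbp2 1.31, Tsc22d3 0.89 and Zbtb20 0.20. Over all retained barcodes those of AY036118 (0.077), Camk1d (0.091), Ccn2 (-0.70), Col4a4 (-0.21), Gphn (0.11), Npnt (-0.25) and Sema3e (-0.37) turned. Lgals3 turned to -0.22 with equal weights. Hs6st3, all in 1 IgG barcode, had values of 0.59 with at least 4 counted genes and 0.73 with 4 more exclusion genes. These Hs6st3 values are what the pseudocount gives a gene with equal UMIs in both libraries, so no direction can be read from them. Among genes nearer 1, Clic5 (0.59) and B2m (0.55) turned over all rule members, and B2m (0.30) over retained barcodes. Of 630 gene values under 9 alternatives, 521 stayed within the interval of the value given. Of 162 list medians under 9 alternatives, 114 were counted as the same and 48 as moved. With equal weights the median went from 0.13 to -0.05 for membrane and caveolae genes. It went from 0.11 to -0.41 for interferon gamma and class I genes. No paired analysis was possible because each group has 1 library. Depth limits low genes: with 25 and 56 barcodes, a gene at 0 UMIs could have up to 3.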

Other observations

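The genes that stood lowest in S100A4-11 over all rule members were led by Scgb1a1, Scgb3a2 and Cyp2f2, genes of secretory airway cells. Of the 12 named there, 9 had most of their IgG UMIs in the 7 Scgb1a1-rich barcodes, and none was among the 12 lowest over retained barcodes; of the 12 highest, 6 were shared. The 12 lowest over retained barcodes, led by Per3, Col23a1 and Rarb, were chosen from a set with more Malat1-rich barcodes in IgG than in S100A4-11. Lpin2, a lipid phosphatase gene, was lower also without them, with 219 CPM in S100A4-11 and 552 CPM in IgG (0.396, 0.204 to 0.718).

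Many type 1 barcodes had few mitochondrial UMIs. A share under 0.5% was found in 36.7% of S100A4-11 and 33.0% of IgG retained barcodes, against 1.20% and 1.90% of type 2 cells and 1.59% and 3.56% of endothelial cells; neutrophils were higher than all of these, at 74.0% and 75.7%. In IgG, Jarid2, the gene lowest in S100A4-11 after Hs6st3, had 188 CPM in the 16 type 1 barcodes without a Malat1 UMI and 4577 CPM in the other 40, at median depths of 1028 and 1268 UMIs. These values were looked at after the data had been seen, and what they come from was not tested.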
